A study of Rattus norvegicus with 65 samples.

Results

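Transcripts of 10 enzymes that remove superoxide and hydrogen peroxide were followed across all groups of the study. They are the superoxide dismutases Sod1, Sod2 and Sod3, catalase (Cat) and the peroxiredoxins Prdx1 to Prdx6. The 10 were chosen by name, as the rows of the count table that carry these rat gene symbols, and all 10 were found among the 14554 genes of the table. The RNA came from primary neonatal rat cardiomyocytes, the contracting cells of the heart taken from newborn rats, which were kept without serum overnight and then exposed to a drug or its DMSO solvent. The 5FU condition was 10 mM 5-fluorouracil, a pyrimidine analogue used against tumors. It was compared with DMSO1, cells in 1% DMSO. The Ace condition was 2.5 mM acetaminophen, a pain reliever, and the Dox condition was 1.25 μM doxorubicin, an anthracycline used against tumors. Both were compared with DMSO2, cells in 0.25% DMSO, and so shared their controls. Exposure lasted 6 or 24 hours. The 6-hour groups held 6 libraries each for DMSO1, 5FU and Ace and 7 each for DMSO2 and Dox, and the 24-hour groups held 6 each for DMSO1 and 5FU and 7 each for DMSO2, Ace and Dox, which makes 65 libraries in 10 groups. Cells from more than 1 litter were pooled into a common preparation. Libraries of a group are therefore wells in parallel, and p-values measure the spread between wells and not between animals.

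A cell makes superoxide mostly as a by-product of respiration and of oxidases. Superoxide dismutases turn it into hydrogen peroxide, Sod1 in the cytosol, Sod2 in the mitochondrial matrix and Sod3 outside the cell. Catalase breaks hydrogen peroxide down in peroxisomes, and the peroxiredoxins reduce peroxides with a reactive cysteine that thioredoxin or glutathione restores. Prdx1, Prdx2 and Prdx6 are mainly cytosolic, Prdx3 is mitochondrial, Prdx4 works in the endoplasmic reticulum and Prdx5 is found in mitochondria, peroxisomes and the cytosol. The heart is known for many mitochondria and a low catalase content, and oxidative stress is a long-studied feature of doxorubicin exposure in this tissue.

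Levels are given in CPM, the estimated counts of a gene per 1000000 counts of the TMM-scaled library total. They compare a gene between groups but not 2 genes with each other, since they are not divided by transcript length. Library totals ran from 14332827 to 25738297 counts, and every one of the 10 transcripts had at least 196 counts in every library, so the spread between wells and not counting error limits most comparisons. The 8 cardiomyocyte markers (Tnnt2, Tnni3, Myh6 and others) summed to between 22940 and 54180 CPM in every library, and none of the 8 was at 0 in any group. The sum was not steady. It was 32820 to 41210 CPM in DMSO2 and 22940 to 28870 CPM in Dox at 24 hours, where 1 of the 8 was higher and 6 were lower (median log2 fold change -1.75). Over all genes 40.4% were higher and 41% lower there. Myh6, the alpha heavy chain of cardiac myosin, fell there from a mean of 18000 to 1030 CPM, Tnni3, cardiac troponin I, from 1780 to 244 CPM and Ryr2, the calcium release channel, from 1180 to 86.2 CPM. Nppa went the other way, from 1070 to 12200 CPM, and so made up a larger part of the sum in Dox. Tnnt2 (6840 to 5900 CPM) and Myl3 (4200 to 4590 CPM) moved less. In 5FU at 24 hours 2 of the 8 were higher and 4 lower, where 28% of all genes were higher and 27.8% lower. The sum of the 8 was 28120 to 29790 CPM there, against 32020 to 35860 CPM in DMSO1. The part of these changes in the results for Dox and 5FU at 24 hours was not tested. Fibroblast, smooth muscle, endothelial, macrophage and red cell markers were present as well. Library 1 of DMSO1 and library 7 of Dox, both at 24 hours, lay farthest from the other libraries of their groups across all genes. Their root mean square log2 differences from the group were 0.354 and 0.344, where the median over the 65 libraries was 0.182. Library numbers are names only.

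The question behind each drug comparison was how exposure shifts the cell's transcripts at an early and a late time. At 6 hours in 5FU, 9 of the 10 transcripts were higher and none was lower than in DMSO1 at an FDR below 0.01 in edgeR's quasi-likelihood test, where 23.4% of all genes passed as higher and 24.5% as lower. At 24 hours 5 were above and none below the control (28% and 27.8% of all genes). In Ace, 3 were higher and 1 was lower at 6 hours (16.5% and 15.2% of all genes), and 4 were above and 1 below at 24 hours (18.2% and 19.1%). In Dox, 8 were higher and none was lower at 6 hours (31.5% and 32.7%), and 4 were above and 3 below at 24 hours (40.4% and 41%). With DESeq2's size factors or the library totals alone as scaling, the split in Dox at 24 hours became 5 higher and 2 lower. The members' median log2 fold change was 0.28 in 5FU at 6 hours, 0.20 in 5FU at 24 hours, 0.080 and 0.062 in Ace, 0.38 in Dox at 6 hours and 0.063 in Dox at 24 hours, while the median over all genes lay between -0.00936 and 0.00295 in these comparisons. No member reached a log2 fold change of 1 against its control. The largest was -0.71 for Sod3 in Dox at 24 hours, where the median absolute log2 fold change over all genes was 0.77. None of the 10 passed between DMSO1 and DMSO2 in edgeR at 6 hours, where 9.87% of all genes passed as higher and 6.6% as lower, or at 24 hours, where 0.137% and 0.295% did. DESeq2 called none at either time, and at an unadjusted p below 0.05 there was 1 member, Sod3, at 6 hours and 0 at 24 hours.

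**Figure D1:**
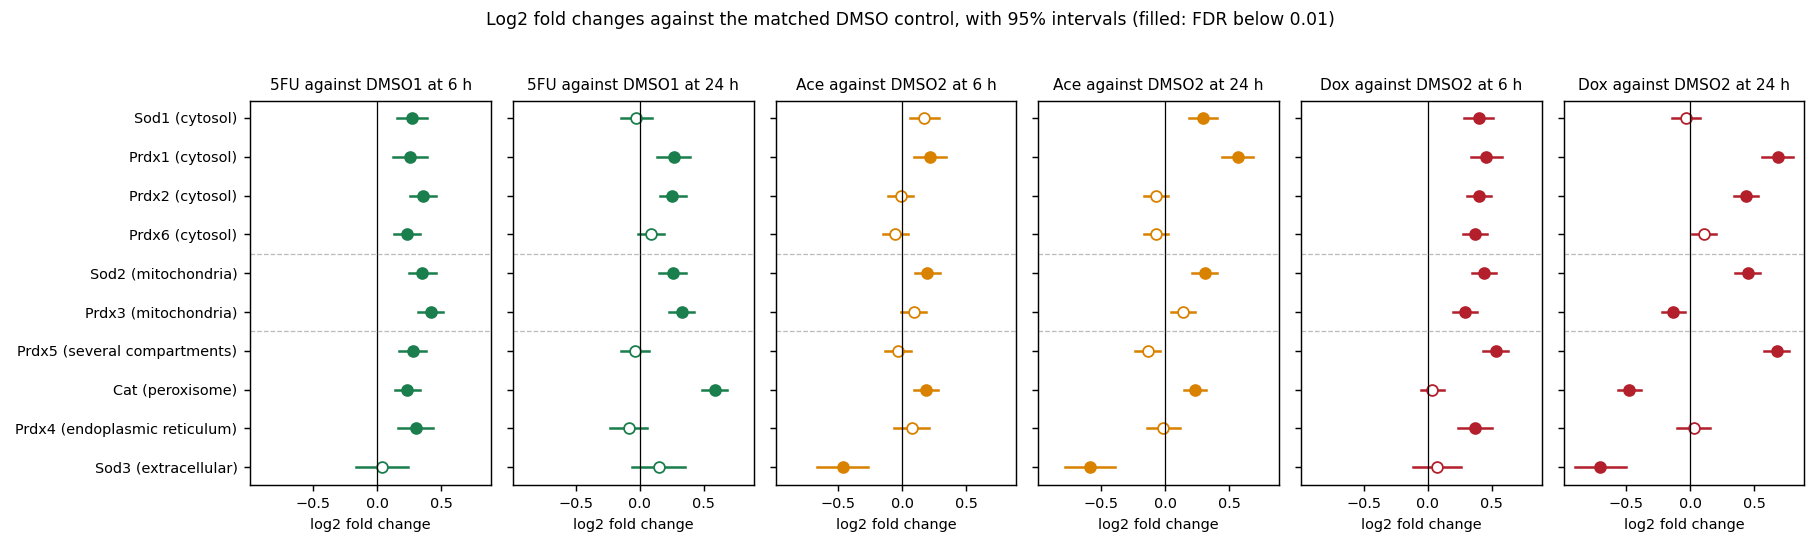
Log2 fold changes (x axis) of the 10 transcripts against the DMSO control of the same time, in 1 panel for each drug and time, with 95% intervals as bars and filled points for an FDR below 0.01. Dashed lines set apart the 4 cytosolic members, the 2 mitochondrial members and the 4 members of other places. At 6 hours the filled points of 5FU and Dox lie between 0.23 (Prdx6 in 5FU) and 0.53 (Prdx5 in Dox), and at 24 hours in Dox they spread from -0.71 for Sod3 to 0.68 for Prdx1.

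Sod2 encodes the manganese superoxide dismutase of the mitochondrial matrix, and it was higher than its control in each of the 6 drug comparisons. In DMSO1 at 6 hours its level was 259.6 to 286 CPM (median 275), and in 5FU at 6 hours 291 to 396 CPM (median 355). In DMSO2 at 6 hours it was 261 to 294 CPM (median 282), against 308 to 341 CPM (median 322) in Ace and 357 to 417 CPM (median 378) in Dox. The treated libraries at 6 hours all lay above every library of their own control. The log2 fold changes were 0.35 ± 0.052 (SE) in 5FU, 0.20 ± 0.050 in Ace and 0.44 ± 0.048 in Dox, with edgeR FDR values of 2.9e-08, 0.001 and 2e-12. At 24 hours DMSO1 held 239.6 to 279 CPM (median 246) and 5FU 293 to 310.4 CPM (median 299). DMSO2 held 240.3 to 263 CPM (median 249), Ace 294 to 334 CPM (median 301) and Dox 312 to 395 CPM (median 331). The groups again did not overlap, and the log2 fold changes were 0.26 ± 0.052, 0.31 ± 0.048 and 0.45 ± 0.048 (edgeR FDR 1.7e-05, 1.7e-07 and 5.4e-13). Dox exceeded Ace at 24 hours by 0.14 ± 0.048 (edgeR FDR 0.0074), a call that was lost without library 5 of Ace (FDR 0.01) or library 7 of Dox (FDR 0.021) and with the compared groups alone (FDR 0.044). In order of mean level the groups ran from Dox at 6 hours (383 CPM) and 5FU at 6 hours down to DMSO1 (251 CPM) and DMSO2 (248 CPM) at 24 hours, and no neighbors in that order were separate in all their libraries.

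The sequence before the start site of Sod2 is shown because it holds a match to the core of the antioxidant response element, the site through which Nfe2l2 (NRF2) acts on many genes of peroxide removal. The letters searched were TGACNNNGC on both strands. RefSeq windows of the GRCr8 build, 250 bases before to 50 bases after a start site, were found for 8 of the 10 genes and not for Sod3 and Prdx6. The core was in 4 of the 8, Sod2, Prdx1, Prdx4 and Prdx5, and in 12.2% of all 27457 windows. A GC box (GGGCGG, either strand), the site of Sp1-type factors, was in 7 of the 8, all but Cat, and in 34.9% of all windows. No antioxidant response match overlapped a GC box match in these genes. A match is a description of the letters and not evidence of binding. The 250 bases before the Sod2 start site (chr1:50050169-50050418, minus strand) are printed 5′ to 3′, with the match in capitals at position -35.
Sod2: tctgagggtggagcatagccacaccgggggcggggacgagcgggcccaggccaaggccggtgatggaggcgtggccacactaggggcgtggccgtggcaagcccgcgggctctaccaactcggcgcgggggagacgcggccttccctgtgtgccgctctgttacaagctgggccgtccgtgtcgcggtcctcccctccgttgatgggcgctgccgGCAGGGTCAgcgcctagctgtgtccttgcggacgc

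Sod1 encodes the copper and zinc dismutase of the cytosol. At 6 hours it was 322 to 387 CPM (median 363) in DMSO1 and 356 to 504 CPM (median 424) in 5FU, so that the groups overlapped. In DMSO2 it was 319 to 413 CPM (median 376), in Ace 382 to 439.8 CPM (median 413) and in Dox 437 to 545 CPM (median 477). Dox libraries all lay above DMSO2. The log2 fold changes at 6 hours were 0.27 ± 0.059 in 5FU (edgeR FDR 7.1e-05, and 0.013 with the compared groups alone) and 0.40 ± 0.055 in Dox (edgeR FDR 3.5e-09), while Ace at 0.17 ± 0.057 did not pass (edgeR FDR 0.011, but 0.0096 in DESeq2 and from 0.0032 to 0.0073 without library 1 of Ace or library 1 or 3 of DMSO2). At 24 hours the picture differed. Ace was at 461 to 504 CPM (median 497) against 369 to 453 CPM (median 387) in DMSO2, a log2 fold change of 0.30 ± 0.055 (edgeR FDR 6.7e-06) with no overlap. Dox, at 364 to 404 CPM (median 389), and 5FU, at 347 to 402 CPM (median 376) against 362 to 405 CPM (median 383) in DMSO1, overlapped with their controls. Their log2 fold changes were -0.034 ± 0.055 and -0.027 ± 0.059, with 95% intervals from -0.14 to 0.076 and from -0.15 to 0.092. The effect changed from 6 to 24 hours in 5FU (-0.30 ± 0.084, edgeR FDR 0.0021, but 0.011 with the compared groups alone and 0.012 with library totals alone) and in Dox (-0.43 ± 0.078, edgeR FDR 1.7e-06). The Sod1 window (chr11) held no antioxidant response core.

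Sod3, the dismutase that is secreted and binds to the matrix around cells, had the lowest counts of the 10, and it fell in Ace and late in Dox. At 6 hours it was 21.4 to 32.2 CPM (median 27.2) in DMSO2, 16.8 to 21.2 CPM (median 19.8) in Ace and 21.7 to 31.3 CPM (median 28.4) in Dox. Ace libraries all lay below DMSO2, with a log2 fold change of -0.46 ± 0.10 (edgeR FDR 0.00011), and Dox libraries overlapped with it (0.075 ± 0.094). At 24 hours DMSO2 was at 18.9 to 23.4 CPM (median 21.7), Ace at 13.2 to 16.3 CPM (median 13.97) and Dox at 9.12 to 15.5 CPM (median 14.4). Neither drug overlapped with DMSO2, and the log2 fold changes were -0.58 ± 0.10 in Ace (edgeR FDR 1.1e-06) and -0.71 ± 0.10 in Dox (edgeR FDR 2.7e-09). The Dox effect was lower at 24 than at 6 hours by -0.78 ± 0.14 on the log2 scale (edgeR FDR 9.2e-07). In 5FU the level was 17.9 to 28.02 CPM (median 21.8) at 6 hours and 20.4 to 25.1 CPM (median 21.8) at 24 hours, against 18.7 to 26.7 CPM (median 22.1) and 15.9 to 23.7 CPM (median 20.5) in DMSO1, and neither difference passed (0.039 ± 0.10 and 0.15 ± 0.11).

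Fibroblasts and vascular cells also make Sod3, and their markers were set beside it. At 6 hours 6 of the 8 fibroblast markers were lower in Ace and 6 in Dox (15.2% and 32.7% of all genes). Their sums were 7331 to 10950 CPM and 7758 to 10180 CPM against 9687 to 14460 CPM in DMSO2. At 24 hours the 8 fibroblast markers (Col1a1, Col1a2, Col3a1, Dcn, Lum, Pdgfra, Postn and Tcf21) summed to 15100 to 18890 CPM in DMSO2, to 7250 to 9277 CPM in Ace and to 1917 to 4064 CPM in Dox, and all 8 were lower in both drugs. Of all genes, 19.1% were lower in Ace and 41% in Dox at 24 hours. In 5FU at 24 hours, where Sod3 did not pass, all 8 fibroblast markers were lower too (27.8% of all genes). Their sums were 5166 to 5837 CPM against 9972 to 19900 CPM in DMSO1. The 5 endothelial markers tested summed to 232 to 303 CPM in DMSO2 at 24 hours, to 128 to 231 CPM in Ace and to 18.2 to 41.3 CPM in Dox. At that time 4 of them were lower in Ace, 4 in 5FU and all 5 in Dox (19.1%, 27.8% and 41% of all genes). At 6 hours 2 were lower in 5FU, 3 in Ace and all 5 in Dox (24.5%, 15.2% and 32.7% of all genes). None was higher in these comparisons. Sod3 did not pass in 5FU at either time or in Dox at 6 hours. Of 6 smooth muscle and pericyte markers, none was higher and 4 were lower in Ace at 24 hours, and 3 were higher and 2 lower in Dox. Over all genes 18.2% were higher in Ace and 40.4% in Dox at that time. In Dox at 6 hours 4 of the 6 were higher and 1 lower (31.5% and 32.7% of all genes). In 5FU at 24 hours 2 were higher and 4 lower (28% and 27.8%). The solvent moved markers as well. In DMSO1 against DMSO2 at 6 hours 7 of 8 fibroblast and 4 of 5 endothelial markers were lower (6.6% of all genes). Sod3 was at -0.26 ± 0.099 there (edgeR FDR 0.046, not passed). None of these markers was at 0 in all libraries of a group. The part of these cells in the Sod3 result was not tested, and in bulk RNA fewer cells of a type and less RNA per cell cannot be told apart.

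Catalase, the peroxisomal enzyme that splits hydrogen peroxide, had the widest span of effects among the 10 at 24 hours, higher in 5FU and Ace and lower in Dox. In DMSO1 at 24 hours it was 189 to 247 CPM (median 209), and in 5FU 306 to 337 CPM (median 317), above every control library. In DMSO2 it was 205 to 225 CPM (median 214), in Ace 239 to 262 CPM (median 252) and in Dox 139 to 174 CPM (median 154). The 3 groups did not overlap. The log2 fold changes were 0.58 ± 0.048 in 5FU (edgeR FDR 1.6e-16), 0.23 ± 0.045 in Ace (edgeR FDR 1.2e-05) and -0.48 ± 0.045 in Dox (edgeR FDR 3.4e-15). The Dox effect differed from the 5FU effect by -1.06 ± 0.066 (edgeR FDR 9.2e-23), and Dox lay below Ace by -0.71 ± 0.045 (edgeR FDR 1e-22). The 5FU effect exceeded the Ace effect by 0.35 ± 0.065 (edgeR FDR 9.1e-06). At 6 hours Cat was higher in 5FU and Ace and did not pass in Dox. The level was 149.8 to 179 CPM (median 164) in DMSO1 and 187 to 206 CPM (median 194) in 5FU, a log2 fold change of 0.24 ± 0.048 (edgeR FDR 2.8e-05). DMSO2 was at 162 to 181 CPM (median 177), Ace at 192 to 202 CPM (median 199) (0.18 ± 0.046, edgeR FDR 0.00094) and Dox at 166 to 197 CPM (median 175) (0.034 ± 0.045, edgeR FDR 0.49, not passed). With library totals alone as scaling the Dox value at 6 hours was -0.12. The change from 6 to 24 hours in the effect passed in 5FU (0.35 ± 0.068, edgeR FDR 1.9e-05) and Dox (-0.51 ± 0.063, edgeR FDR 1.2e-10). In the order of mean level, 5FU at 24 hours (319.9 CPM) stood apart from Ace at 24 hours (253 CPM), which stood apart from DMSO2 at 24 hours (215 CPM), and the groups below overlapped with their neighbors.

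Other peroxisomal genes were set beside Cat. Of 9 tested, none was higher and 6 were lower in Dox at 6 hours (median log2 fold change -0.44), and none was higher and 8 were lower in Dox at 24 hours (median -0.935), where 32.7% of all genes at 6 hours and 41% at 24 hours were lower. Among those lower at 24 hours were Hsd17b4 (-1.82), an enzyme of peroxisomal fatty acid oxidation, the import factor Pex14 (-1.49) and Pex11a (-1.23), which takes part in peroxisome division. In 5FU at 24 hours 5 were higher and 2 lower (median 0.20), among them Acaa1a (-0.78), Ehhadh (0.75) and Pex14 (0.41). Over all genes 28% were higher and 27.8% lower there. In Ace at 24 hours 1 was higher and 1 lower (18.2% and 19.1% of all genes). In 5FU at 6 hours 2 were higher and 3 lower (23.4% and 24.5% of all genes). In Ace at 6 hours 1 was higher and none lower (16.5% and 15.2%).

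**Figure D2:**
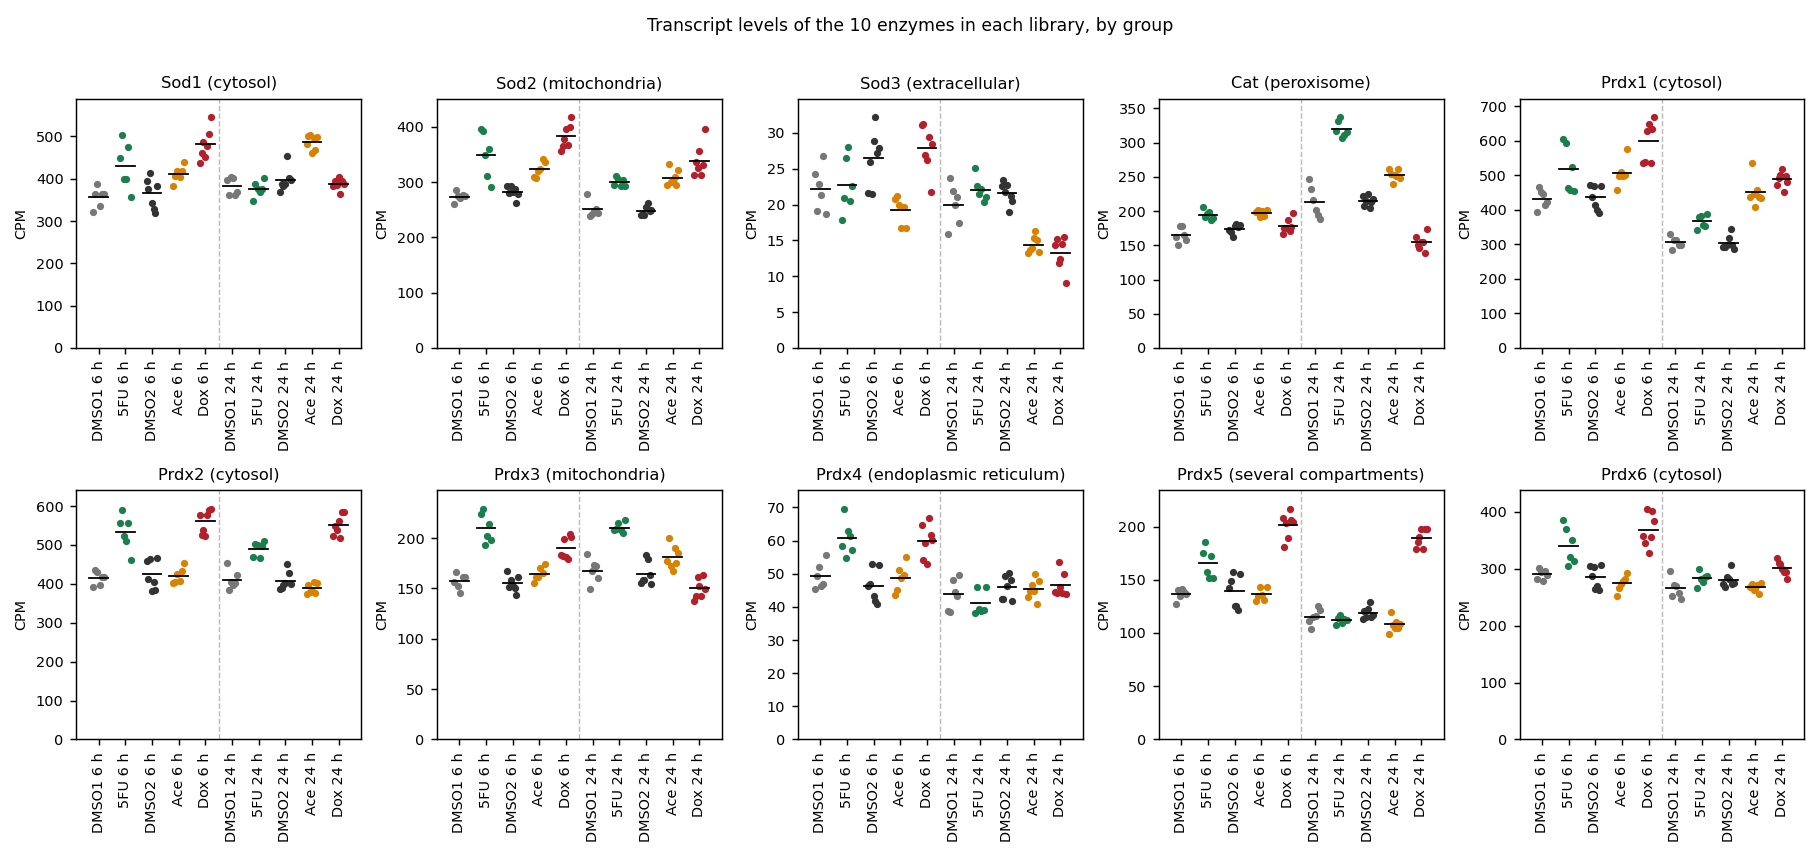
Level in CPM (y axis, from 0) of each transcript in each library, by group (x axis), with the group mean as a bar and a dashed line between 6 and 24 hours. Cat in 5FU at 24 hours (306 to 337 CPM) and in Dox at 24 hours (139 to 174 CPM) lies on either side of both 24-hour controls, and Prdx1 in each drug at 24 hours lies above its own control.

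Prdx1, an abundant cytosolic peroxiredoxin and a known target of NRF2, was higher in all 6 drug comparisons. The 250 bases before its start site (chr5:135383656-135383905, plus strand, GRCr8) are shown with those of Prdx3 (chr1:270000112-270000361, minus strand), because the 2 genes are the cytosolic and mitochondrial members compared within each library, and because the antioxidant response core is found in the first (position -135, in capitals) and not in the second.
Prdx1: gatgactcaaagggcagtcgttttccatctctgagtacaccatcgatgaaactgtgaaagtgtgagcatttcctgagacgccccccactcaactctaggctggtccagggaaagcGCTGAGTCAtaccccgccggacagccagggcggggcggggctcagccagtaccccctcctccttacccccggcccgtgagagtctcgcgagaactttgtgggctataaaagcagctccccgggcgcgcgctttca
Prdx3: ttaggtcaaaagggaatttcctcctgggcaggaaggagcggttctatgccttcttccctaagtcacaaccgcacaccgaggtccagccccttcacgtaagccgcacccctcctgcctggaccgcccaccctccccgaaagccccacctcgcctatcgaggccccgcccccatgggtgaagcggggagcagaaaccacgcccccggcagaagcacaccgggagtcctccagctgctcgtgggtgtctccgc

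Prdx1 in DMSO1 at 6 hours was 395 to 466 CPM (median 434), and in 5FU 455 to 606 CPM (median 495). In DMSO2 it was 391 to 473 CPM (median 437), in Ace 459 to 578 CPM (median 500.1) and in Dox 536 to 668 CPM (median 629). Only the Dox libraries were all above their control at this time. The log2 fold changes were 0.26 ± 0.066 in 5FU (edgeR FDR 0.00063, and 0.019 with the compared groups alone), 0.22 ± 0.064 in Ace (edgeR FDR 0.004) and 0.46 ± 0.061 in Dox (edgeR FDR 1.4e-09). The Ace call was lost without library 6 of Ace or library 5 or 6 of DMSO2, with FDR values from 0.01 to 0.02. At 24 hours DMSO1 was at 283 to 332 CPM (median 305) and 5FU at 341 to 389 CPM (median 369). DMSO2 was at 286 to 344 CPM (median 298), Ace at 408 to 536 CPM (median 437) and Dox at 453 to 519 CPM (median 493). No treated library overlapped with its controls at this time, and the log2 fold changes were 0.26 ± 0.066, 0.57 ± 0.061 and 0.68 ± 0.062 (edgeR FDR 0.00042, 7.6e-12 and 6.6e-16). The Ace effect was larger at 24 than at 6 hours (0.35 ± 0.088, edgeR FDR 0.0026). The Dox effect at 24 hours exceeded the 5FU effect by 0.42 ± 0.090 (edgeR FDR 3.5e-05), and the 5FU effect lay below the Ace effect by -0.30 ± 0.090 (edgeR FDR 0.0041, but 0.01 and 0.017 without library 5 of 5FU or library 2 of Ace, and 0.013 without the 2 libraries farthest from their groups). The RefSeq annotation lists pseudogenes and near copies of Prdx1, Prdx3, Prdx6 and Sod2 that are not rows of the table, so that reads may have been shared with them and the levels of these 4 genes are uncertain to that extent.

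Prdx2, a cytosolic peroxiredoxin that is also abundant in red cells, was higher in 5FU and Dox at both times and not in Ace. At 6 hours it was 392 to 436 CPM (median 418) in DMSO1 and 462 to 591 CPM (median 540.2) in 5FU. In DMSO2 it was 382 to 468 CPM (median 411), in Ace 401 to 455 CPM (median 417) and in Dox 523 to 593 CPM (median 577). The 5FU and Dox libraries did not overlap with their controls. The log2 fold changes at 6 hours were 0.36 ± 0.051 in 5FU (edgeR FDR 1e-08), 0.40 ± 0.047 in Dox (edgeR FDR 2.5e-11) and -0.013 ± 0.049 in Ace, with a 95% interval from -0.11 to 0.085. At 24 hours DMSO1 held 384 to 453 CPM (median 404), 5FU 466 to 510.3 CPM (median 499), and DMSO2 387 to 452 CPM (median 400.2). Ace held 375 to 405 CPM (median 382) and Dox 518 to 585 CPM (median 548). The 5FU and Dox groups again lay wholly above their controls, by 0.26 ± 0.051 (edgeR FDR 1.3e-05) and 0.44 ± 0.047 (edgeR FDR 6.3e-13). Ace was at -0.070 ± 0.047, with a 95% interval from -0.16 to 0.024. Dox exceeded Ace at 24 hours by 0.51 ± 0.047 (edgeR FDR 2.7e-15), and the 5FU effect exceeded the Ace effect by 0.33 ± 0.069 (edgeR FDR 7.7e-05). The 4 red cell markers tested summed to 16.3 to 26.8 CPM in DMSO2 and 112 to 154 CPM in Dox at 24 hours, and to 23.8 to 36.1 CPM in DMSO1 and 55.97 to 83.6 CPM in 5FU, with all 4 higher in both drugs. At 6 hours all 4 were higher in Dox and none passed in 5FU. Over all genes, 31.5% were higher in Dox and 23.4% in 5FU at 6 hours, and 40.4% and 28% at 24 hours. The largest part of the Dox sum at 24 hours was Slc4a1, whose mean went from 4.94 to 72.8 CPM. The globin genes rose less, Hba-a1 from 6.97 to 24.2 CPM, Hba-a2 from 7.09 to 23.3 CPM and Hbb from 4.13 to 12.5 CPM. The part of red cells in the Prdx2 result was not tested.

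Prdx3, the thioredoxin-dependent peroxidase of the mitochondrial matrix, was higher in 5FU at both times and in Dox at 6 hours. At 6 hours it was 146 to 166 CPM (median 159) in DMSO1 and 194 to 229 CPM (median 208) in 5FU. In DMSO2 it was 143 to 168 CPM (median 152), in Ace 155 to 175 CPM (median 164) and in Dox 179 to 204 CPM (median 183). The 5FU and Dox libraries lay wholly above their controls, by 0.42 ± 0.050 (edgeR FDR 1.2e-10) and 0.29 ± 0.046 (edgeR FDR 1e-07), and the Ace libraries overlapped (0.088 ± 0.048, edgeR FDR 0.14). At 24 hours DMSO1 held 149 to 184 CPM (median 169.8) and 5FU 205 to 218 CPM (median 208), a log2 fold change of 0.33 ± 0.050 (edgeR FDR 6.5e-08) with no overlap. DMSO2 held 154 to 183 CPM (median 159), Ace 168 to 201 CPM (median 177) and Dox 138 to 163 CPM (median 149.5). Both drugs overlapped with DMSO2. Ace did not pass (0.14 ± 0.046, edgeR FDR 0.011), but did with a stricter filter (FDR 0.0084), with library totals alone (FDR 9.8e-05), and without library 1, 3, 4 or 6 of Ace or library 4 or 5 of DMSO2 (FDR from 0.0028 to 0.0094). Dox passed as lower (-0.13 ± 0.047, edgeR FDR 0.007), but this call did not hold. It was lost in DESeq2 (FDR 0.061), with either other scaling, with the compared groups alone (FDR 0.021), with a stricter filter, and without any of the 7 Dox libraries or library 4 or 5 of DMSO2, with FDR values up to 0.069. The fall in the Dox effect from 6 to 24 hours was larger, at -0.43 ± 0.066 (edgeR FDR 4.9e-08). Dox lay below Ace at 24 hours by -0.27 ± 0.046 (edgeR FDR 3.4e-07), and the Dox effect lay below the 5FU effect by -0.46 ± 0.068 (edgeR FDR 1.6e-08).

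Prdx5, which uses a different catalytic cycle and is targeted to several compartments, was the peroxiredoxin with the largest difference between Dox and the other drugs at 24 hours. It was 113 to 129 CPM (median 117) in DMSO2, 179 to 198 CPM (median 190.1) in Dox and 99.5 to 120.1 CPM (median 107) in Ace. DMSO1 was at 104 to 125 CPM (median 115) and 5FU at 108 to 117 CPM (median 113). All Dox libraries lay above all other libraries of that time. The log2 fold changes were 0.67 ± 0.049 in Dox (edgeR FDR 8.2e-20), -0.14 ± 0.049 in Ace (edgeR FDR 0.017, not passed, but 0.0057 with the compared groups alone and 0.0088 without library 2 of Ace) and -0.037 ± 0.053 in 5FU, with an interval from -0.14 to 0.070. The Dox effect exceeded the 5FU effect by 0.71 ± 0.073 (edgeR FDR 1.4e-13), and Dox exceeded Ace by 0.81 ± 0.049 (edgeR FDR 1.6e-23). At 6 hours the levels were 122 to 157 CPM (median 142) in DMSO2 and 181 to 217 CPM (median 204) in Dox, a log2 fold change of 0.53 ± 0.049 (edgeR FDR 5.6e-15). DMSO1 was at 127 to 141 CPM (median 138) and 5FU at 152 to 186 CPM (median 165) (0.28 ± 0.053, edgeR FDR 7e-06), and Ace at 130 to 144 CPM (median 135) (-0.032 ± 0.051, not passed). Both drugs that passed did so without overlap. The 5FU effect was lower at 24 than at 6 hours by -0.32 ± 0.075 (edgeR FDR 0.00033).

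Prdx4, which helps fold secreted proteins in the endoplasmic reticulum, and Prdx6, a cytosolic enzyme restored by glutathione that also acts on phospholipids, were higher in 5FU and Dox at 6 hours. Prdx4 was 45.4 to 55.6 CPM (median 48.2) in DMSO1 and 54.9 to 69.6 CPM (median 59.9) in 5FU (0.30 ± 0.070, edgeR FDR 0.00018), with overlap. It was 40.8 to 52.9 CPM (median 46.4) in DMSO2 and 53.1 to 66.7 CPM (median 60.1) in Dox (0.37 ± 0.065, edgeR FDR 9.8e-07), without overlap. Its effect was lower at 24 than at 6 hours in 5FU (-0.39 ± 0.10, edgeR FDR 0.00085) and Dox (-0.35 ± 0.092, edgeR FDR 0.00072). Prdx6 at 6 hours was 279 to 302 CPM (median 292) in DMSO1 and 306 to 386 CPM (median 335) in 5FU (0.23 ± 0.051, edgeR FDR 7.6e-05). It was 262 to 306 CPM (median 287) in DMSO2 and 328 to 405 CPM (median 358) in Dox (0.37 ± 0.047, edgeR FDR 2.8e-10). Neither comparison had overlap. The Prdx6 effect of Dox was lower at 24 than at 6 hours by -0.27 ± 0.066 on the log2 scale (edgeR FDR 3e-04). With library totals alone as scaling, the time differences in Dox of Prdx4 and Prdx6 did not pass (FDR 0.16 and 0.33). Neither gene passed in Ace at either time or in 5FU or Dox at 24 hours, where Prdx4 means ran from 41.2 to 46.7 CPM and Prdx6 means from 266 to 301 CPM over the 5 groups at 24 hours. Prdx6 in Dox at 24 hours was at 0.10 ± 0.047 (edgeR FDR 0.038), and it passed as higher with DESeq2 (FDR 0.0031), with either other scaling, with a stricter filter and without library 6 (FDR 0.0099) or library 7 of Dox (FDR 0.0057). Of 10 folding genes of the endoplasmic reticulum, 1 was higher and 9 were lower in 5FU at 24 hours (median log2 fold change -0.56), and 1 was higher and 8 were lower in Dox (median -0.58), where 28% and 27.8% of all genes in 5FU and 40.4% and 41% in Dox were higher and lower. Examples are the chaperone Hspa5 (-0.78 in 5FU and -1.30 in Dox), the chaperone Calr (-0.84 in 5FU and -0.60 in Dox) and the disulfide isomerase Pdia4 (-1.34 in Dox). The exception, named after its values were seen, was Ero1a, an oxidase that passes electrons to oxygen and yields hydrogen peroxide and was higher in both (0.63 and 0.48). At 6 hours 2 of the 10 folding genes were higher and 1 lower in 5FU (23.4% and 24.5% of all genes). In Dox 4 were higher and 2 lower at 6 hours (31.5% and 32.7%). In Ace 4 were higher and none lower at 6 hours (16.5% and 15.2%), and none was higher and 3 were lower at 24 hours (18.2% and 19.1%).

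Cytosolic and mitochondrial members were then compared. At 6 hours in 5FU, all 4 cytosolic members (Sod1, Prdx1, Prdx2 and Prdx6) and both mitochondrial members (Sod2 and Prdx3) were higher, with median log2 fold changes of 0.27 and 0.39. In Dox at 6 hours all 6 were higher again, with medians of 0.40 and 0.37. In Ace at 6 hours 1 of 4 cytosolic and 1 of 2 mitochondrial members were higher (medians 0.080 and 0.14). Over all genes 23.4% were higher in 5FU, 31.5% in Dox and 16.5% in Ace at 6 hours. At 24 hours, in 5FU, 2 of 4 cytosolic and 2 of 2 mitochondrial members were higher (medians 0.17 and 0.29), and in Ace 2 of 4 and 1 of 2 (medians 0.11 and 0.22). In Dox, 2 of 4 cytosolic members were higher (median 0.27, from -0.034 for Sod1 to 0.68 for Prdx1), and of the mitochondrial members Sod2 was higher, while Prdx3 passed as lower only in the call that was lost under most alternatives (median 0.16). Over all genes 28% were higher in 5FU, 18.2% in Ace and 40.4% in Dox at 24 hours, and 41% were lower in Dox. The 2 of 4 cytosolic members in Dox were thus near the share of all genes. The mitochondrial median rests on 2 genes and rose to 0.45 in Dox at 24 hours when Prdx5 was counted with them, so it says little beyond the genes themselves.

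The ratio of a mitochondrial to a cytosolic transcript within a library does not depend on library scaling. The ratio of Sod2 to Sod1 counts at 24 hours was 0.601 to 0.702 in DMSO1 (median 0.661) and 0.729 to 0.849 in 5FU (median 0.805). It was 0.580 to 0.658 in DMSO2 (median 0.631), 0.596 to 0.667 in Ace (median 0.628) and 0.819 to 1.02 in Dox (median 0.852). The 5FU and Dox libraries all lay above their controls. The ratio was 1.22-fold higher in 5FU (exact permutation test, two-sided, p = 0.0022, adjusted p = 0.0069 over 16 tests, 6 against 6 libraries) and 1.39-fold higher in Dox (exact permutation p = 0.00058, adjusted p = 0.0031, 7 against 7), both the smallest p that these numbers allow. Library 7 of Dox had the highest ratio, 1.02, and the log2 difference without each library in turn ran from 0.44 to 0.49. In Ace it was 1.01-fold (exact permutation adjusted p = 0.82). At 6 hours none of the 3 drugs passed, with medians of 0.799 in 5FU, 0.782 in Ace and 0.787 in Dox against 0.774 in DMSO1 and 0.744 in DMSO2.

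The ratio of Prdx3 to Prdx1 counts was lower in Ace and Dox. At 24 hours it was 0.521 to 0.576 in DMSO2 (median 0.539), 0.375 to 0.425 in Ace (median 0.405) and 0.290 to 0.328 in Dox (median 0.311), with no overlap among the 3. The fold was 0.744 in Ace and 0.57 in Dox (exact permutation test, p = 0.00058 and adjusted p = 0.0031 for each, 7 against 7 libraries). In 5FU it was 0.549 to 0.609 (median 0.572) against 0.528 to 0.581 in DMSO1 (median 0.546), which did not pass (exact permutation p = 0.058, adjusted p = 0.12). At 6 hours the fold was 0.914 in Ace (exact permutation adjusted p = 0.0093) and 0.894 in Dox (adjusted p = 0.0069 in the exact permutation test), both with overlap, and 1.12 in 5FU (exact permutation adjusted p = 0.064). The medians at 6 hours were 0.326 in Ace, 0.322 in Dox and 0.355 in DMSO2. In the DMSO controls the ratio was higher in every library at 24 hours (0.521 to 0.581) than in any at 6 hours (0.327 to 0.397), a difference that was not tested. DMSO1 and DMSO2 did not pass for either ratio at either time, with exact permutation adjusted p from 0.25 to 0.89. Prdx1 is only 1 of the cytosolic peroxiredoxins. In Ace at 24 hours the log2 fold change was 0.14 for Prdx3 and 0.57 for Prdx1, but -0.070 for Prdx2 and -0.071 for Prdx6. In Dox it was -0.13 for Prdx3, 0.44 for Prdx2 and 0.10 for Prdx6. The fall in Ace thus holds for Prdx1 as the partner, and ratios to Prdx2 or Prdx6 were not tested.

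**Figure D3:**
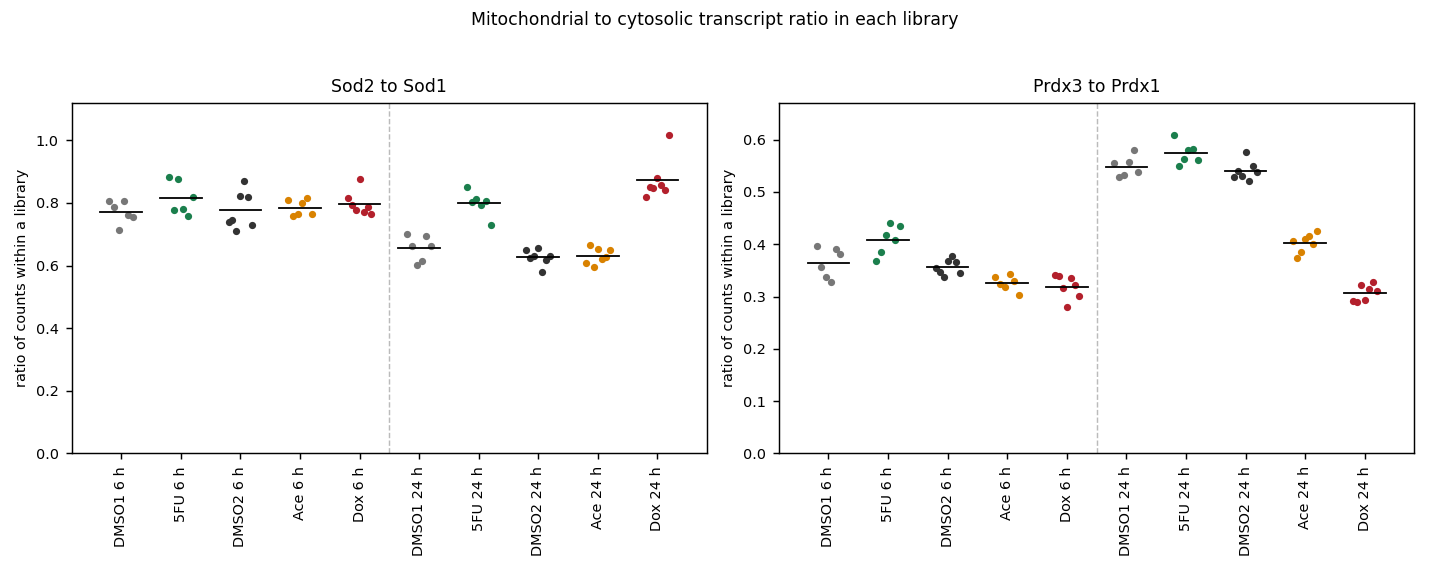
Ratio of counts within each library (y axis, from 0) of Sod2 to Sod1 and of Prdx3 to Prdx1, by group (x axis), with the group mean as a bar and a dashed line between 6 and 24 hours. The Sod2 to Sod1 ratio of 5FU and Dox at 24 hours lies above both controls, and the Prdx3 to Prdx1 ratio of Dox at 24 hours (0.290 to 0.328) lies below all other 24-hour libraries.

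Some of these transcripts also differed between 6 and 24 hours in the DMSO controls. Every group of the study held DMSO, so time since cell isolation and time in DMSO could not be told apart. The part of each in the differences was not tested. Between 6 and 24 hours in the DMSO controls, both concentrations together, 1 member was higher and 4 were lower (32.7% and 31.9% of all genes passed). Cat rose by 0.34 ± 0.033 (edgeR FDR 3.8e-14), from group means of 165 and 174 CPM to 213 and 215 CPM. Prdx1 had a log2 fold change of -0.51 ± 0.045 (edgeR FDR 9.3e-16), from 432 and 436 CPM to 306 and 304 CPM. Sod2 (-0.15 ± 0.035), Prdx5 (-0.24 ± 0.036) and Sod3 (-0.22 ± 0.071, edgeR FDR 0.004) were lower too. The Sod3 call was lost without library 1 of DMSO1 at 24 hours, library 5 of DMSO2 at 24 hours, or library 5 of either control at 6 hours, with FDR values from 0.011 to 0.013. With DESeq2's size factors the split was 3 higher and 4 lower, with Sod1 and Prdx3 added. In the tests of the effect at 24 minus 6 hours, 1 member was higher and 3 were lower in 5FU (20.3% and 19.2% of all genes), 1 was higher and none lower in Ace (5.58% and 6.06%) and none was higher and 6 were lower in Dox (34% and 30.8%). The Dox count depends on the scaling. With library totals alone it was 4 higher and 4 lower, and that scaling also moved the median log2 difference over all genes from 0.07 to 0.27. The effects of the drugs at 24 hours were compared in the same way, with 2 members higher and 3 lower in Dox than in 5FU (35.8% and 35.4% of all genes, and 4 higher and 3 lower with either other scaling), 4 higher and 3 lower in Dox than in Ace (40.7% and 39.9%) and 3 higher and 2 lower in 5FU than in Ace (18.2% and 19.1%).

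Peroxiredoxins are restored by the thioredoxin and glutathione systems, and the genes of those systems were set beside them. Of 18 such genes, 12 were higher and none was lower in 5FU at 6 hours, and 12 rose and 2 fell at 24 hours. Over all genes, 23.4% rose and 24.5% fell in 5FU at 6 hours, and 28% and 27.8% at 24 hours. In Ace 5 rose and 2 fell at 6 hours (16.5% and 15.2% of all genes), and 8 rose and 2 fell at 24 hours (18.2% and 19.1%). In Dox 10 rose and 3 fell at 6 hours, and 11 rose and 4 fell at 24 hours (median log2 fold change 0.38). Over all genes, 31.5% rose and 32.7% fell in Dox at 6 hours and 40.4% and 41% at 24 hours, so the share of the 18 that passed in Dox at 24 hours was near that of all genes. Srxn1, the sulfiredoxin that repairs overoxidized peroxiredoxins, had log2 fold changes of 1.95 and 1.37 in 5FU, 1.59 and 1.55 in Ace, and 3.19 in Dox at 24 hours, after -0.043 at 6 hours, which did not pass. Gclc, the catalytic subunit of the enzyme that limits glutathione synthesis, was at 1.25 in Ace and 2.92 in Dox at 24 hours. Txnrd1, the cytosolic thioredoxin reductase, was at 2.06 in Dox, 0.65 in Ace and 0.51 in 5FU at 24 hours. Gsr, which reduces oxidized glutathione, was higher in 5FU (0.96) and lower in Dox (-1.36) at that time. The cytosolic and mitochondrial thioredoxins, named after their values were seen, parted in Dox at 24 hours, with Txn1 at 1.18 and Txn2, the partner of Prdx3, at -0.48.

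**Figure D4:**
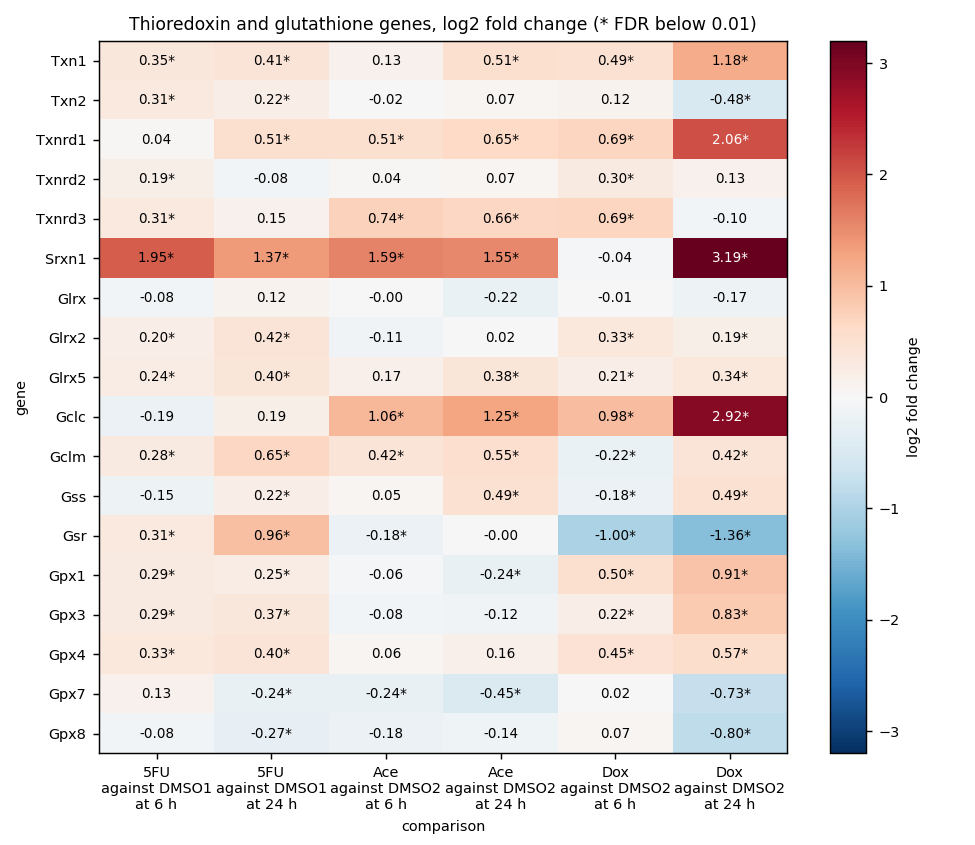
Log2 fold change (color and printed value) of the 18 thioredoxin and glutathione genes (rows) in the 6 drug comparisons (columns), with a star for an FDR below 0.01. Srxn1, Gclc and Txnrd1 carry the largest values, all in Dox at 24 hours (3.19, 2.92 and 2.06), and Gsr is the lowest there (-1.36).

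Of 10 regulators and helpers, 7 rose and 1 fell in 5FU at 6 hours, and 6 rose and 1 fell at 24 hours. The shares over all genes were 23.4% and 24.5%, then 28% and 27.8%. In Ace 3 rose and 1 fell at 6 hours (16.5% and 15.2%) and 2 rose and 3 fell at 24 hours (18.2% and 19.1%). In Dox 4 rose and 4 fell, then 5 rose and 4 fell, where the shares over all genes were 31.5% and 32.7%, then 40.4% and 41%. The regulators' counts in Dox were thus even in direction, as those of all genes were. In Dox at 24 hours Keap1, the inhibitor of NRF2, was at -2.13, Ppargc1a, a coactivator of mitochondrial biogenesis, at -2.18, Sesn2, a stress-induced sestrin, at 1.64, and Sirt3, a deacetylase that acts on Sod2, at -1.46. Among 10 sources of superoxide and peroxide, 2 were higher and 7 lower in Dox at 24 hours (median log2 fold change -0.95), with Nox4 at -2.54 and the NADPH oxidase subunits Ncf1 at -1.84 and Cyba at -1.50. The oxidase subunits Ncf1, Cyba and Cybb are also known from macrophages, whose 7 markers were all lower in Dox at 24 hours. The part of macrophages in the values of these subunits was not tested. In the other comparisons of a drug with its control 1 or 2 of these sources were higher and 3 to 5 were lower. In the DMSO controls 6 were higher and 1 lower at 24 than at 6 hours (32.7% and 31.9% of all genes). Between DMSO1 and DMSO2 none was higher and 2 were lower at 6 hours (9.87% and 6.6% of all genes). None passed there at 24 hours. Of 10 mitochondrial matrix and import genes, 8 were higher and none lower in Dox at 6 hours (median 0.23), and 2 were higher and 5 lower at 24 hours (median -0.095). Timm44 at -1.23 and Hspa9 at -0.58, both of the import motor, were among the latter. In 5FU 3 rose and 1 fell at 6 hours, and 7 rose and 1 fell at 24 hours, while in Ace none rose and 2 fell, then 1 rose and 2 fell. The shares over all genes are those given with the regulators.

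The genes most like each member in their 10 group means of log2 CPM were found by Pearson correlation, as a description over 10 points that share libraries and depth. Genes most like Prdx1 included Pcna (r = 0.966) and Txn1 (0.955). Cat was most like Yaf2 (0.984), Cog4 (0.98) and Crat (0.968). Prdx2 was most like Atp5mg (0.985), Atp5me (0.981) and Tspo (0.98), and Prdx5 most like Cuta (0.982), Rpl37a (0.977) and Rps24 (0.976). The best match was Hsd17b8 for Sod1 (0.956), Chchd7 for Sod2 (0.947), Nrep for Sod3 (0.948), Babam2 for Prdx3 (0.94), Rps26l6 for Prdx4 (0.959) and Tmem134 for Prdx6 (0.948). Among the 10 themselves, Sod2 and Prdx1 had the highest correlation (0.916) and Cat and Prdx5 the lowest (-0.716).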

How the data were processed

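The deposited values are estimated counts per gene, which the authors made with kallisto 0.46.0 and an Ensembl rat annotation, summed from transcripts to genes with tximport, stripped of low-count genes and deposited as whole numbers without normalization. Library totals ran from 14332827 to 25738297 counts. Of the 14554 genes, 14009 were named from RefSeq's GRCr8 gene table. Groups came from the labels. The columns of the count table name the group and not the replicate, so library numbers follow column order and name libraries only.

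Every gene reached a count of 10 in some library and entered a model with 10 groups in edgeR 4.0.16 under R 4.3.3, scaled by TMM factors from 0.859 to 1.07. The quasi-likelihood test was applied to 15 comparisons, with Benjamini-Hochberg FDR over all genes and a threshold of 0.01. Intervals are 95%. No 2 libraries of a group agreed within sampling noise, as the lowest chi-square per gene over 180 pairs was 2.84. Ratios of 2 transcripts within a library were tested by exact permutation over libraries with scipy 1.17.1 under Python 3.11.15, with adjustment over 16 tests and a threshold of 0.05.

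Named genes are all 10 members, from each related list up to 4 called genes with the largest absolute log2 fold change in the comparison described, and for likeness the 3 genes of highest correlation with a mean count of at least 100. Some genes that this rule names are not reported here. Of 119 genes on the related lists and the marker lists, 112 were rows of the table. The members and lists were chosen with earlier results of these data known. The code was tested on simulated data. Alternatives were DESeq2 1.42.0, its size factors, library totals as scaling, a stricter filter, the compared groups alone, other thresholds, each library left out in turn and, chosen after seeing the data, the 2 libraries farthest from their groups left out.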

Additional observations from a re-analysis of the deposited data

Results flagged for a closer look

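Within the groups, 4 libraries lay apart from the others by Dixon's gap test, out of 120 groups of values tested, where chance gives about 5%. Sod1 in library 5 of DMSO2 at 24 hours was 452.9 CPM with the next library at 401.5 CPM. Sod2 in library 1 of DMSO1 at 24 hours was 278.7 CPM with the next at 252 CPM. Prdx1 in library 2 of Ace at 24 hours was 535.5 CPM with the next at 457 CPM. The Sod2 to Sod1 ratio in library 7 of Dox at 24 hours was 1.017 with the next at 0.8811.

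The effect of a drug differed between 24 and 6 hours in edgeR's test of the difference itself for 11 pairs of gene and drug. In 5FU the log2 difference, 24 minus 6 hours, was -0.3008 for Sod1 (edgeR FDR 0.0021), 0.348 for Cat (edgeR FDR 1.9e-05), -0.3888 for Prdx4 (edgeR FDR 0.00085) and -0.3172 for Prdx5 (edgeR FDR 0.00033). In Ace it was 0.3496 for Prdx1 (edgeR FDR 0.0026). In Dox it was -0.4305 for Sod1, -0.781 for Sod3, -0.5106 for Cat, -0.4264 for Prdx3, -0.3454 for Prdx4 and -0.2663 for Prdx6 (edgeR FDR from 1.2e-10 for Cat to 0.00072 for Prdx4).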

How the results depend on the processing

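Precision is limited by the spread between wells of a shared cell preparation. Each group had 6 or 7 libraries, and no member had fewer than 196 counts in a library. No paired analysis was possible because the columns of the count table carry no replicate numbers. Members counted as called stayed within 1.5 times the reported count in every fit that left out 1 library. At an FDR below 0.1, 9 members passed between 24 and 6 hours in the controls (3 higher, 6 lower) and 1, lower, between DMSO1 and DMSO2 at 6 hours. With a log2 fold change of at least 1 also required, 0 passed in any comparison other than Dox minus 5FU, where 1 did (Cat, lower).

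With library totals alone as scaling, the cytosolic median was 0.143 for the Ace time difference, 0.0227 for DMSO1 against DMSO2 at 24 hours (reversed), 0.246 for Dox at 6 hours and 0.0861 for the Dox time difference (reversed). The mitochondrial median was 0.17 for the Ace time difference, -0.0956 for DMSO1 against DMSO2 at 6 hours, 0.213 for Dox at 6 hours and -0.00993 for the Dox time difference. With Prdx5 counted as mitochondrial, that median was -0.155 for time in the controls, 0.138 for Ace at 24 hours, 0.446 for Dox at 24 hours, 0.441 for Dox at 6 hours, 0.189 for Dox minus 5FU, 0.00533 for the Dox time difference and 0.136 for Dox minus Ace, of which the last 3 reversed.

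Single genes that reversed had small values. With library totals alone these were, in DMSO1 against DMSO2, Cat (0.0308) and Prdx5 (0.00328) at 24 hours and Prdx3 (-0.0642) and Prdx6 (-0.0588) at 6 hours. In Dox at 6 hours they were Cat (-0.12) and Sod3 (-0.0787), in 5FU at 6 hours Sod3 (-0.0307) and in Ace at 24 hours Prdx4 (0.0439). In the Ace time difference they were Prdx2 (0.0306), Prdx4 (0.00215) and Prdx6 (0.0737). Sod1 reversed in Dox at 24 hours with DESeq2 (0.00833), its size factors (0.00836) and library totals (0.015), and in Dox minus 5FU with these (0.0331, 0.0331 and 0.0473) and a stricter filter (0.00638). Prdx1 in the 5FU time difference reversed with DESeq2 (-0.00589), size factors (-0.0059) and the compared groups alone (-0.00961), and the last setting also reversed Prdx6 in Dox minus 5FU (-0.00899) and Sod2 in the Dox time difference (-0.00147). Without the 2 farthest libraries, Prdx1 (-0.0118), Prdx2 (-0.0126) and Sod2 (-0.011) reversed in DMSO1 against DMSO2 at 24 hours, as did Sod1 in 5FU at 24 hours (0.00151) and Sod2 in the Dox time difference (-0.017). None of these passed in edgeR under the reported settings. The causes were not tested.

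When each library was left out in turn, the values whose sign turned had these ranges. In DMSO1 against DMSO2 at 24 hours they were Cat from -0.0582 to 0.0312, Prdx1 from -0.0186 to 0.0416, Prdx2 from -0.0195 to 0.0408, Prdx3 from -0.000282 to 0.0701 and Sod2 from -0.018 to 0.0384. At 6 hours they were Prdx1 from -0.0445 to 0.0144, Prdx3 from -0.00436 to 0.0415, Prdx5 from -0.0668 to 0.000252, Prdx6 from -0.00179 to 0.0418 and the log2 Sod2 to Sod1 ratio from -0.0288 to 0.0201. In 5FU they were Sod3 at 6 hours (-0.0325 to 0.0995), Prdx5 at 24 hours (-0.0587 to 0.00348) and the time difference of Prdx1 (-0.0318 to 0.0521). In Ace they were Prdx2 at 6 hours (-0.0368 to 0.0168), Prdx4 at 24 hours (-0.0374 to 0.0165), the time difference of Prdx6 (-0.0418 to 0.00304) and the Sod2 to Sod1 ratio at 6 hours (-0.00269 to 0.0462) and 24 hours (-0.00944 to 0.0234). In Dox they were the time difference of Sod2 (-0.017 to 0.0463) and, in Dox minus 5FU, Prdx6 (-0.0213 to 0.0457) and Sod1 (-0.0237 to 0.0314). The log2 Prdx3 to Prdx1 ratio in 5FU ranged from 0.135 to 0.195 at 6 hours and from 0.0483 to 0.0823 at 24 hours, and passed without library 1 of 5FU or DMSO1 at 6 hours (lowest exact permutation adjusted p 0.03) and without library 5 of DMSO1 at 24 hours (exact permutation adjusted p 0.04). Calls of single genes were lost in 20 of these fits, for the 5 results named with their libraries above, and gained in 42. Gained calls not yet named were, in the controls over time, Sod1 (without library 2, 3 or 6 of DMSO1 or 1, 3 or 7 of DMSO2 at 6 hours, or 1 of DMSO2 at 24 hours), Prdx3 (2 of DMSO1 or 1 of DMSO2 at 6 hours) and Prdx6 (6 of DMSO2 at 6 hours). In the Dox time difference they were Prdx1 (6 of DMSO2 or 7 of Dox at 6 hours, or 5 of DMSO2 at 24 hours) and Prdx5 (6 of DMSO2 at 6 hours). At 24 hours they were Prdx1 in Dox minus Ace (2 of Ace), Prdx3 in 5FU minus Ace (2 of Ace or 1 of DMSO1), and in Dox minus 5FU Sod2 (9 libraries of the 4 groups) and Prdx2 (6 of 5FU, 2 of DMSO1, 5 of DMSO2 or 1 of Dox).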
